A study of Mus musculus with 8 samples.

Results

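Later organoid cultures of mouse liver duct cells were compared with cultures of the first day, to ask which genes besides those of the cell cycle changed as the cells entered proliferation. The comparison used 6 of the 8 libraries, grouped by their titles, with no measured value entering the choice. The later group held 1 library titled 48h and 2 libraries of organoids taken after 6 days. The first-day group held 2 libraries of cells cultured for 12 h and 1 of cells cultured for 24 h. For the library titled 48h the other labels state 24 h, so its group rests on the title alone. All cells were sorted for EpCAM, an adhesion protein of duct epithelium. They came from adult C57/B6 males with healthy livers and were grown in matrigel and organoid medium. The labels give no allele, transgene or drug for any group. The other 2 libraries, of freshly sorted cells, give the level before culture. The labels do not say whether replicates are separate animals. Each group pools libraries of different times, so the SDs and p-values rest on a spread that includes those time differences. The rest of that spread may be technical.

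Cholangiocytes, the epithelial cells of the bile duct, are mostly quiescent in the healthy liver and can resume division after injury or in organoid culture. A dividing cell switches on the genes of G2 phase and mitosis together. Many of their promoters carry a cell cycle homology region (CHR), bound in quiescent cells by the repressive DREAM complex and in dividing cells by B-MYB and FOXM1, next to CCAAT boxes bound by NF-Y. A different family, AP-1, made of Fos and Jun proteins, responds within minutes to stress and growth factors, and tissue dissociation is a known trigger of its targets.

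Expression was deposited for 47729 genes as RPKM, which scales reads by library size and gene length. The steps in these values gave 13832839 to 28463398 effective reads per library. Genes above 0 numbered 16911 to 19061 in the later libraries, against 13895 to 16157 in the first-day libraries. Mitochondrial genes made up 4.93 ± 1.01% of summed RPKM in later cultures, against 9.12 ± 0.646% in first-day cultures (SD, n = 3 each, exact permutation p = 0.1, two-sided, the smallest that 3 against 3 allows). Ribosomal protein genes took 5.52% in organoids 1 and at most 2.17% in the other 5 cultured libraries. RPKM summed to 446034 in organoids 1, against 359128 to 368287 in those 5. The part of these differences in the results below was not tested. Of 12 ductal markers, 11 were at 1 RPKM or more in all 6 libraries, and their summed level was 16533 to 22436 RPKM in later cultures, against 16466 to 23230 RPKM in first-day cultures. Of 10 hepatocyte markers, 6 stayed under 1 RPKM in all 6, with Cps1 and Cyp3a11 at 0, and the sum was 7.08 to 85.2 RPKM in later cultures, against 37.6 to 49.7 RPKM in first-day cultures.

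In later cultures, 123 of the 10857 genes tested differed from first-day cultures, 1.13% of them. Of these, 104 were higher (0.958% of genes tested) and 19 lower (0.175%), by limma on log2(RPKM + 1) with Benjamini-Hochberg adjustment at 0.05. At an unadjusted p under 0.05 lay 1333 of the 10857 genes. These are the shares against which the list counts below stand. The median difference over all genes tested was 0.02 on the log2 scale. Cell cycle lists supplied 44 of the 104 higher genes, and 12 more were assigned to the cell cycle after their values were seen. The remaining 48 higher genes and all 19 lower genes were outside these lists and assignments, and among the lower ones Klhl21, described below, is known from cytokinesis. Differences below are fitted on log2(RPKM + 1), later minus first-day, which understates the change of low genes. Values in single libraries follow 1 order throughout, with the library titled 48h, organoids 1 and organoids 2 as the later libraries and the 12 h replicates 1 and 2 and the 24 h library as the first-day libraries.

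The number of changed genes rested on single libraries. It was 21 without the library titled 48h, 0 without organoids 1 (1066 at an unadjusted p under 0.05) and 0 without organoids 2 (1082). It was 68 without 12 h replicate 1, 8 without 12 h replicate 2 and 124 without the 24 h library. Of these 44, 8 and 90 were among the 123. With the library titled 48h placed on the first day by its time point label, 1 gene passed and 866 lay under an unadjusted p of 0.05. Every named call below therefore ended when either organoid library was left out. None of the 123 genes turned its direction in the 2304 fits of these genes under 19 alternatives, with 33 fits missing where a gene was filtered out. In all 123 the 3 later and 3 first-day values did not overlap. No direction could therefore turn without 1 library or with another pseudocount, and those fits lend no support. For higher genes under 1 RPKM in all 3 first-day libraries, the filter of 1 RPKM in at least 3 of the 6 libraries fixed the order of their values in advance. These were 31 of the 44 cell cycle list genes, 10 of the 12 assigned ones and 31 of the 48 others, so their non-overlap lends the calls no support. The same holds for lower genes under 1 RPKM in all 3 later libraries, such as Pgc and Trbc2.

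**Figure D1:**
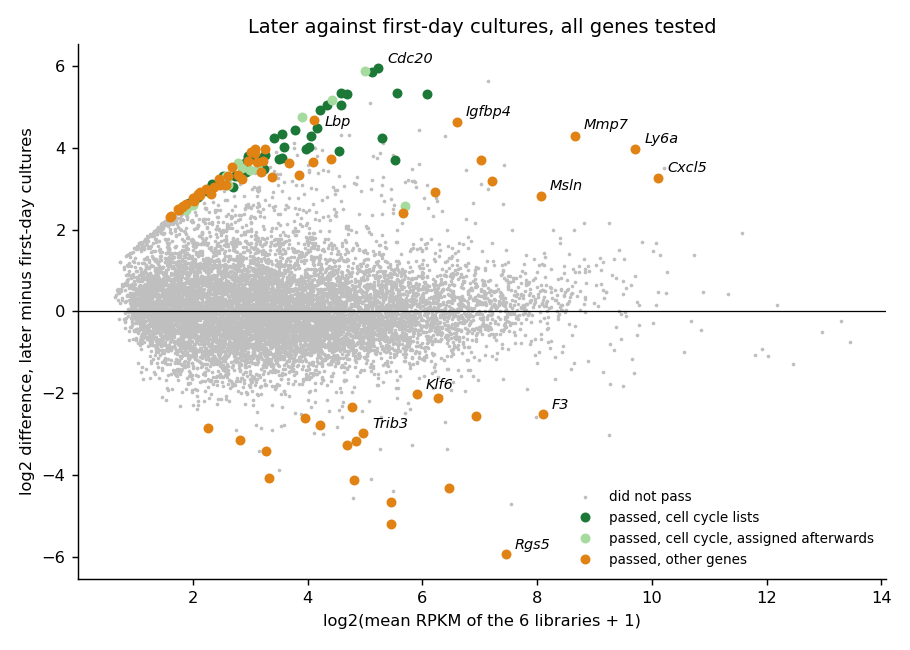
Fitted log2 difference, later minus first-day cultures (vertical axis, log2(RPKM + 1) scale), against the log2 mean RPKM of the 6 libraries (horizontal axis) for the 10857 genes tested, with the 123 that passed in colour. The genes on or assigned to the cell cycle lists lie on the upper side only, and the other genes that passed lie on both sides, with Mmp7, Ly6a and Cxcl5 among the most abundant.

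Genes of mitosis were the most numerous among the higher genes. The G2 and M phase list had 113 genes tested. By limma 40 of them passed as higher and 0 as lower, against 0.958% and 0.175% of all genes tested. Without overlap between the groups, 100 of the 113 were higher, against 10.2% of all genes tested. Of these, 49 were under 1 RPKM in all 3 first-day libraries and entered the test only because all 3 later values reached 1 RPKM, which fixed their order in advance and raises the list's median difference of 2.73. Among genes at 1 RPKM or more in all 3 first-day libraries, 15 of 26 in the list were higher without overlap, against 6.49% of all such genes. None of the 237 cell cycle list genes tested was lower by limma, which is near the 0.175% lower among all genes tested. Ccnb2, the cyclin B2 partner of Cdk1, had 144, 109 and 137 RPKM in later libraries, against 0.682, 5.85 and 1.99 RPKM in first-day libraries (log2 difference 5.32, SE 0.54, adjusted p = 0.00572). Cdc20, an activator of the anaphase-promoting complex, had 92.7, 28.8 and 96.7 RPKM in later libraries, against 0, 0.123 and 0.0279 RPKM in first-day libraries (log2 difference 5.95, SE 0.61, adjusted p = 0.00572). Plk1, a mitotic kinase, had 73.6, 15.4 and 59 RPKM in later libraries, against 0.0217, 0.0209 and 0.0947 RPKM in first-day libraries (log2 difference 5.32, SE 0.67, adjusted p = 0.0142). In Ccnb2 all later values stood far above all first-day values. Cdc20 and Plk1, like Mki67 below, were under 1 RPKM in all 3 first-day libraries, so the filter fixed their order in advance. Mki67, the proliferation antigen, had 23.1, 5.76 and 6.26 RPKM in later libraries, against 0, 0.201 and 0 RPKM in first-day libraries (log2 difference 3.31, SE 0.63, adjusted p = 0.0448). Top2a, the DNA topoisomerase of dividing cells, had 49.1, 9.54 and 30.8 RPKM in later libraries, against 0.117, 0.158 and 2.05 RPKM in first-day libraries (log2 difference 4.02, SE 0.73, adjusted p = 0.0394).

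Fewer genes of the earlier phases passed, and their counts stand against 0.958% higher and 0.175% lower of all genes tested. Of 46 S phase genes, 2 passed, Gmnn, an inhibitor of replication licensing (4.25, adjusted p = 0.0354), and Cdc45, a helicase cofactor (3.97, adjusted p = 0.0474), with a list median of 1.44. In nucleotide synthesis 1 of 30 passed, the thymidine kinase Tk1 (3.12, adjusted p = 0.0354), with a median of 0.06, and among 22 G1 regulators 1 passed, the inhibitor Cdkn2d (3.48, adjusted p = 0.0495), with a median of 0.81. Of 26 DNA repair genes 0 passed by limma, with a median of 1.03. At an unadjusted p under 0.05 lay 9 of them, against 1333 of all 10857 genes tested. Of the 26, 7 were under 1 RPKM in all 3 first-day libraries, so the filter fixed their order in advance, which raises this median. Among the 7 at 1 RPKM or more in all 3 first-day libraries, 0 were higher without overlap, against 6.49% of all such genes. In the S phase, nucleotide and G1 lists 4, 1 and 1 genes entered by the filter route. Mcm5, a subunit of the replicative helicase, had 76.5, 14 and 45.9 RPKM in later libraries, against 8.76, 4.24 and 59.4 RPKM in first-day libraries (log2 difference 1.38, SE 0.90, adjusted p = 0.571), so its groups overlapped. Pcna, the replication clamp, had 35.7, 13.6 and 28.4 RPKM in later libraries, against 19.7, 16.2 and 15.1 RPKM in first-day libraries, and these overlapped too (log2 difference 0.49, SE 0.46, adjusted p = 0.704). Ccnd1, the G1 cyclin, had 163, 76.9 and 199.7 RPKM in later libraries, against 47, 42.2 and 56.3 RPKM in first-day libraries, which did not overlap but did not pass (log2 difference 1.48, SE 0.41, adjusted p = 0.142).

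Promoters of mitotic genes are shown for the letters that many of the higher cell cycle genes share. RefSeq promoters on GRCm38.p6, 250 bases before to 50 after the start, matched 33 of the 44 higher cell cycle list genes, 44 of the other 60 higher genes, 11 of the 19 lower genes and 8269 of all genes tested. Both strands were searched for TTTGAA, the core of the CHR, and for CCAAT, the CCAAT box, which do not overlap each other. The CHR letters stood in the promoters of 21 of the 33 cell cycle genes (63.6%), against 13.9% of all genes tested, and both letter sets together in 18 of 33 (54.5%), against 5.88%. Among the other higher genes the CHR letters stood in 8 of 44 (18.2%). Of the lower genes 1 of 11 held them. These shares describe the windows and carry no test. In the printed sequences, 5′ to 3′ along the gene, capitals mark CCAAT and TTTGAA. Ccnb2 (chr9:70421505-70421804, minus strand) held 3 CCAAT boxes and 2 CHR cores, Cdc20 (chr4:118437294-118437593, minus strand) held 2 and 1, and Plk1 (chr7:122159185-122159484, plus strand) held 1 and 1.
Ccnb2: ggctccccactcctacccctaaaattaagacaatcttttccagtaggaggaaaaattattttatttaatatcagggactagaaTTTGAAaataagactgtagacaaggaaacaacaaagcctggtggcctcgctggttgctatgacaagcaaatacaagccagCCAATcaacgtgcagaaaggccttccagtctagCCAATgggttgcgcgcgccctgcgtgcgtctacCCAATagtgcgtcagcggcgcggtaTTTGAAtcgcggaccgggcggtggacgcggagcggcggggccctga
Cdc20: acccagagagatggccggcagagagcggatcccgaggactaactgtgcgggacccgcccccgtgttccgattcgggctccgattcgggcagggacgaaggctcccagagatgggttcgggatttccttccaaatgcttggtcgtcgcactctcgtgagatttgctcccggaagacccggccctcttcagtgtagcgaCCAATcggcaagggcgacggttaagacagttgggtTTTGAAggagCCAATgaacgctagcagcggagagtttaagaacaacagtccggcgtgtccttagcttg
Plk1: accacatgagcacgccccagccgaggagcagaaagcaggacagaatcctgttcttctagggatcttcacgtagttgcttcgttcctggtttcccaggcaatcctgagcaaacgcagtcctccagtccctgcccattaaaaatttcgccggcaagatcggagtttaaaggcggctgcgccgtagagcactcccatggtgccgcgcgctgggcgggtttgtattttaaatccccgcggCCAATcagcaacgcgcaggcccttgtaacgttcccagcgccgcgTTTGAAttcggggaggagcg

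Outside the cell cycle, several of the higher genes encode secreted proteins. Igfbp4, a secreted binding protein of insulin-like growth factors (chr11:99041244-99054392, GRCm38), was 30.3-fold higher, at 186 ± 96.7 RPKM in later cultures, against 6.15 ± 2.38 RPKM in first-day cultures (SD, n = 3 each). Its single values were 109.6, 154 and 295 RPKM in later libraries, against 6.54, 3.59 and 8.3 RPKM in first-day libraries (log2 difference 4.65, SE 0.47, adjusted p = 0.00572). The first-day values lay near the 5.24 and 5.77 RPKM of fresh cells. Mmp7, a matrix metalloprotease of ductal and glandular epithelium (chr9:7692090-7699585), had 902, 631 and 709.8 RPKM in later libraries, against 23.8, 15.9 and 127 RPKM in first-day libraries (log2 difference 4.30, SE 0.65, adjusted p = 0.0264), 13.5-fold higher by the means. Fresh cells held 145 and 43.3 RPKM. The 24 h library held the highest first-day Mmp7 value, and still stood below every later library. Cxcl5, a chemokine for neutrophils (chr5:90759360-90761624), had 2142, 1586 and 2213 RPKM in later libraries, against 290.4, 98 and 289 RPKM in first-day libraries (log2 difference 3.27, SE 0.46, adjusted p = 0.0173), 8.77-fold higher by the means. Fresh cells held 1403 and 1172 RPKM of Cxcl5, closer to the later than to the first-day level. Lbp, the plasma protein that presents lipopolysaccharide to its receptor (chr2:158306493-158332852), had 17.7, 27.9 and 51.1 RPKM in later libraries, against 0.583, 0.0286 and 0.0216 RPKM in first-day libraries (log2 difference 4.68, SE 0.60, adjusted p = 0.0142). It was under 1 RPKM in all 3 first-day libraries. Pglyrp1, a secreted protein that binds bacterial peptidoglycan, had 245, 419.9 and 138 RPKM in later libraries, against 47.7, 15.1 and 23.5 RPKM in first-day libraries (log2 difference 3.18, SE 0.52, adjusted p = 0.0284). It was named after its values were seen. Of 29 inflammatory mediators tested Cxcl5 was the only one to pass, and the list's median was −0.19.

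Among surface proteins, Ly6a, the stem cell antigen Sca-1 (chr15:74994877-74998031), had 423, 3259 and 1106 RPKM in later libraries, against 101, 49.6 and 74.9 RPKM in first-day libraries (log2 difference 3.98, SE 0.65, adjusted p = 0.0284). Organoids 1 held the highest Ly6a value and the library titled 48h the lowest of the later 3. Msln, mesothelin, a surface glycoprotein of mesothelium and of some epithelia (chr17:25748613-25754378), had 413, 488 and 475 RPKM in later libraries, against 37.9, 48.5 and 137 RPKM in first-day libraries (log2 difference 2.83, SE 0.46, adjusted p = 0.0286), a 6.16-fold increase by the means. Of 5 other mesothelial markers 4 were under 1 RPKM in all 6 libraries, and their sum was 0.214 to 5.78 RPKM in later cultures, against 0 to 0.024 RPKM in first-day cultures. Ly6a and Msln were the 2 of 20 tested regenerative and fetal epithelial genes that passed. In this list 8 of 20 were higher and 2 lower without overlap, against 10.2% and 9.25% of all genes tested, and the median was 1.05. Its members Wfdc2, a secreted protease inhibitor (3.52, adjusted p = 0.0554), and Krt7, a duct keratin (1.99, adjusted p = 0.0649), missed the threshold. Wfdc2 read 645, 5268 and 786 RPKM in later libraries, against 199, 81.7 and 107 RPKM in first-day libraries, so that organoids 1 alone set most of its mean.

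Further membrane proteins and 1 secreted ligand were among the higher genes and were named after their values were seen. Gabrp, a subunit of a chloride channel gated by GABA, had 112, 144 and 475 RPKM in later libraries, against 13.9, 9.66 and 21.7 RPKM in first-day libraries (log2 difference 3.69, SE 0.56, adjusted p = 0.0255). Bcam, a laminin receptor, had 87.4, 77.9 and 85.6 RPKM in later libraries, against 16.3, 18.4 and 10.9 RPKM in first-day libraries (log2 difference 2.41, SE 0.36, adjusted p = 0.0247). It was already at 70.9 and 80.9 RPKM in fresh cells, so that the first-day level was the low one. Spns2, a transporter of sphingosine-1-phosphate, had 14.6, 39.3 and 37.6 RPKM in later libraries, against 3.85, 1.43 and 0.0383 RPKM in first-day libraries (log2 difference 3.65, SE 0.70, adjusted p = 0.0464). Its gene overlaps Mybbp1a, which shares reads where counting ignores strand. Slc26a9, an anion transporter of gastric and airway epithelium, had 11.9, 3.13 and 12.1 RPKM in later libraries, against 0.00913, 0.0264 and 0.0996 RPKM in first-day libraries (log2 difference 3.09, SE 0.60, adjusted p = 0.0474). Muc20, a membrane mucin, was listed at 0 in 2 of the 3 first-day libraries and overlaps Muc4 (log2 difference 3.24, SE 0.53, adjusted p = 0.0284). Nrtn, a secreted ligand of the RET receptor family, had 24.8, 26 and 16.3 RPKM in later libraries, against 0.747, 2.16 and 0.153 RPKM in first-day libraries (log2 difference 3.63, SE 0.59, adjusted p = 0.0284).

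**Figure D2:**
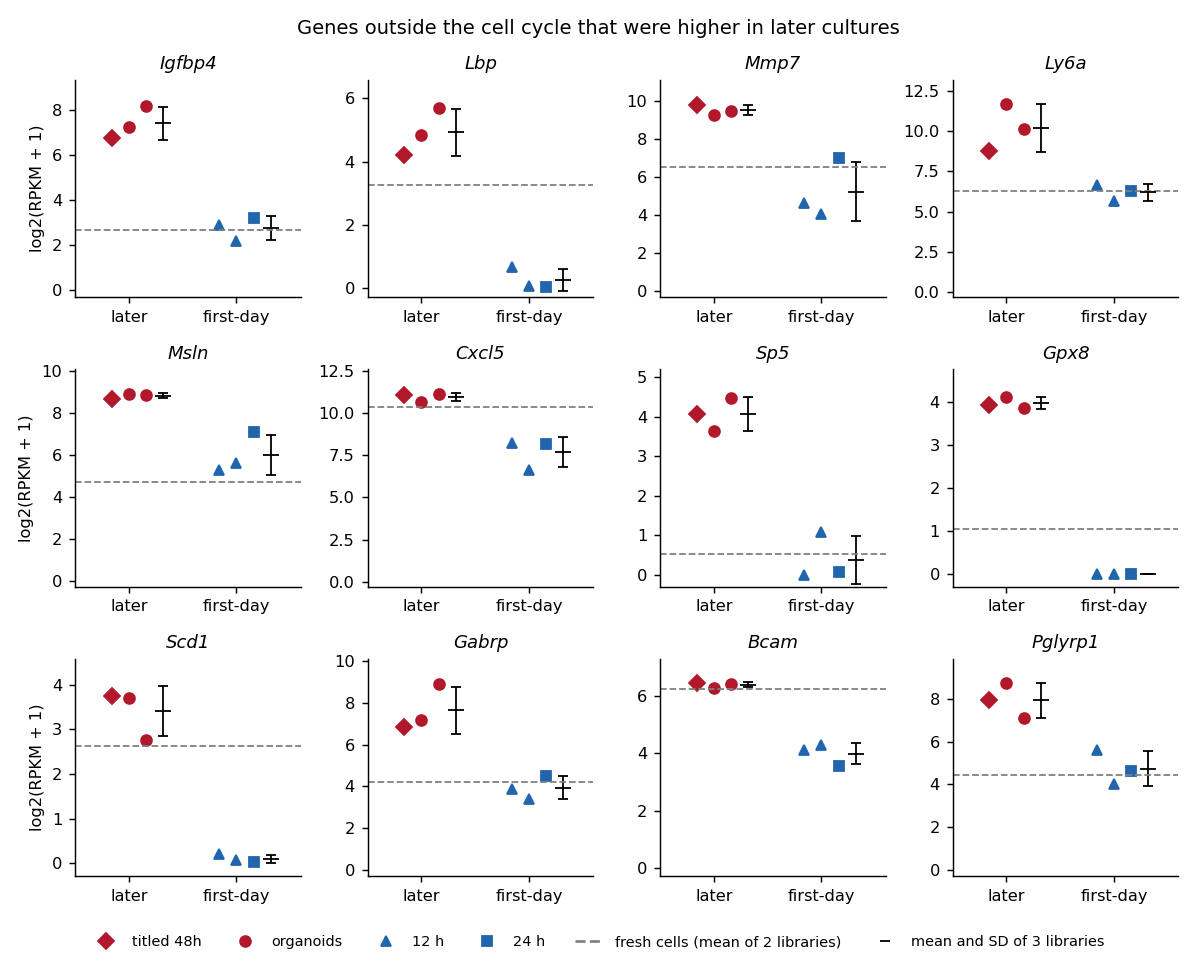
Log2(RPKM + 1) (vertical axis) in the 3 later and 3 first-day libraries for 12 higher genes outside the cell cycle, with the mean and SD of each group in black and the mean of the fresh libraries as a dashed line. In every panel the later points lie above all first-day points, as they did in every gene that passed as higher. For Cxcl5, Bcam, Scd1 and Lbp the dashed line lies nearer the later points.

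Of 19 Wnt targets and organoid stem genes tested, 1 passed, Sp5, a zinc finger gene induced by beta-catenin, with 15.9, 11.4 and 21.4 RPKM in later libraries, against 0, 1.12 and 0.0496 RPKM in first-day libraries (log2 difference 3.68, SE 0.59, adjusted p = 0.0284). Lgr5, the R-spondin receptor of organoid stem cells, had 1.05, 72 and 4.21 RPKM in later libraries, against 0, 0.224 and 0.0457 RPKM in first-day libraries and did not pass (log2 difference 3.08, SE 1.11, adjusted p = 0.271). Its high value was that of organoids 1 alone. Axin2, the feedback inhibitor of Wnt signalling, had 1.23, 1.3 and 8.88 RPKM in later libraries, against 1.21, 1.14 and 15.4 RPKM in first-day libraries (log2 difference −0.20, SE 0.93, adjusted p = 0.951). Here the 24 h library was the highest of all. Sp5, Lgr5 and Axin2 thus followed different patterns over the same libraries.

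In lipid metabolism the desaturase Scd1 rose, with 12.5, 12.1 and 5.83 RPKM in later libraries, against 0.148, 0.0476 and 0.0108 RPKM in first-day libraries (log2 difference 3.32, SE 0.54, adjusted p = 0.0284). It was the 1 of 18 fatty acid synthesis genes that passed, and fresh cells held 6.78 and 3.56 RPKM. Its paralog Scd2 had 124, 144 and 134 RPKM in later libraries, against 23.5, 26.5 and 56.6 RPKM in first-day libraries, without overlap (log2 difference 1.99, SE 0.40, adjusted p = 0.0503). Of 24 cholesterol genes 0 passed by limma, 6 lay under an unadjusted p of 0.05, and 7 were higher and 0 lower without overlap, against 10.2% and 9.25% of all genes tested, with a median of 0.59. Hmgcs1, an early enzyme of the pathway, had 127, 67 and 118 RPKM in later libraries, against 39.2, 42.2 and 41.4 RPKM in first-day libraries (log2 difference 1.27, SE 0.36, adjusted p = 0.148). Gpx8, a peroxidase of the endoplasmic reticulum, was listed at 0 in all first-day libraries and had 14.4, 16.5 and 13.7 RPKM in the later libraries (log2 difference 3.98, SE 0.51, adjusted p = 0.0142), though its gene overlaps Cdc20b.

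Lysosomal enzymes formed a group that was assembled after the values were seen, so its counts describe it and support nothing. Against 0.958% higher and 0.175% lower of all genes tested, 5 of the 46 lysosomal hydrolases tested were higher and 0 lower, with a median of 0.43. They were Galns (2.85, adjusted p = 0.039), which removes sulfate from glycosaminoglycans, the phospholipase Pla2g15 (2.88, adjusted p = 0.0474), the amidase Naaa (2.71, adjusted p = 0.0474), the acid phosphatase Acp5 (3.68, adjusted p = 0.0284) and the heparanase Hpse (2.64, adjusted p = 0.0373). All 5 had first-day values of at most 0.34 RPKM and later values between 2.86 and 22.4 RPKM. They entered the test only because all 3 later values reached 1 RPKM, which fixed their order in advance. Among the 34 hydrolases at 1 RPKM or more in all 3 first-day libraries, 2 were higher without overlap (5.88%), against 6.49% of all such genes. Cln6, a membrane protein of the endoplasmic reticulum needed for lysosomal enzyme export, was listed at 0 in all first-day libraries and had 7.79, 14.3 and 10.5 RPKM in the later libraries (log2 difference 3.53, SE 0.52, adjusted p = 0.0224).

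A few higher genes carry names of other lineages. Pf4, a chemokine of platelets and macrophages that neighbours Cxcl5, had 16.6, 18.7 and 10.8 RPKM in later libraries, against 0, 2.49 and 0 RPKM in first-day libraries (log2 difference 3.40, SE 0.66, adjusted p = 0.0474). Mcpt8, a protease of basophils, had 13.5, 29.9 and 7.58 RPKM in the later libraries and was listed at 0 in all first-day and fresh libraries (log2 difference 3.97, SE 0.62, adjusted p = 0.0268). Trdv4, a variable segment of the T cell receptor delta locus that overlaps Gm30275, had 11.4, 15.8 and 14.9 RPKM in the later libraries and was listed at 0 in all first-day libraries (log2 difference 3.90, SE 0.51, adjusted p = 0.0161). Of 8 immune markers, Ptprc, Clec4f, Adgre1 and Cd3e were at 0 in all 6 cultured libraries, and the sum of the 8 was 11.4 to 27.2 RPKM in later cultures, against 4.88 to 17.7 RPKM in first-day cultures. A longer list of 19 immune markers, 9 of them at 0 in all 6, also holds Cd74, which makes up most of its sum in the 12 h and 24 h libraries. That sum was 15.3 to 28.4 RPKM in later cultures, against 20.8 to 149 RPKM in first-day cultures, and without Cd74 it was 11.9 to 28.3 RPKM in later cultures, against 4.90 to 22.5 RPKM in first-day cultures. These sums overlapped between the groups, and their part in the results was not tested.

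The 19 lower genes included a signalling regulator, antigen presentation genes and genes of stress responses. Rgs5, a regulator of G protein signalling known from pericytes (chr1:169655501-169695813), had 34.9, 0.254 and 1.88 RPKM in later libraries, against 179, 389 and 438 RPKM in first-day libraries (log2 difference −5.95, SE 1.03, adjusted p = 0.0354). On the first day Rgs5 stood higher than in fresh cells, which held 66.9 and 61 RPKM. Of 10 mesenchymal and stellate markers 7 were under 1 RPKM in all 6 libraries, with Pdgfrb, Lum and Lrat at 0, and Rgs5 made up most of their sum. In bulk RNA, fewer cells of a type and less RNA per cell cannot be told apart.

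Cd74 and H2-Q6, both of antigen presentation, were lower in later cultures. Cd74, the invariant chain of MHC class II, had 0.13, 1.9 and 3.44 RPKM in later libraries, against 136, 100.4 and 15.9 RPKM in first-day libraries (log2 difference −4.66, SE 0.84, adjusted p = 0.0373), against 257 and 254 RPKM in fresh cells. H2-Q6, a non-classical MHC class I gene with near-identical neighbours that can share reads, had 8.63, 0.659 and 0.285 RPKM in later libraries, against 66.9, 60.2 and 24.8 RPKM in first-day libraries (log2 difference −4.12, SE 0.79, adjusted p = 0.0468). It was the 1 of 17 class I presentation genes that passed, and 6 of 17 were lower without overlap against 9.25% of all genes tested, with a median of −1.02, or −0.46 without organoids 1. The classical class I gene H2-K1 had 359, 207 and 159 RPKM in later libraries, against 683, 542 and 443 RPKM in first-day libraries (log2 difference −1.26, SE 0.38, adjusted p = 0.177). H2-D1, also a classical class I gene, had 244, 160.1 and 201 RPKM in later libraries, against 473, 443 and 389.7 RPKM in first-day libraries (log2 difference −1.12, SE 0.31, adjusted p = 0.144). Neither overlapped between the groups and neither passed. Nlrc5, the transactivator of class I genes, was listed at 0 in all 3 later libraries and had 3.78, 2.26 and 1.02 RPKM in the first-day libraries (log2 difference −1.66, SE 0.46, adjusted p = 0.144). It entered the test only because all 3 first-day values reached 1 RPKM, which fixed its order in advance. Among the 10 class I presentation genes at 1 RPKM or more in all 3 later libraries, 3 were lower without overlap, against 8.68% of all such genes. Of 22 interferon response genes 0 passed by limma, and the median was −0.94. Under an unadjusted p of 0.05 lay 7, all lower, against 1333 of all 10857 genes tested in either direction.

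Other lower genes were known responders to injury and stress. F3, tissue factor, the starter of coagulation (chr3:121723537-121735048), had 141, 53.2 and 59.4 RPKM in later libraries, against 306, 627 and 454 RPKM in first-day libraries (log2 difference −2.52, SE 0.45, adjusted p = 0.0373), 5.46-fold lower by the means. Fresh cells held 2287 and 2344 RPKM. It was the 1 of 26 YAP and TEAD targets that passed. Klf6, an immediate early zinc finger factor (chr13:5861482-5870394), had 24.3, 21.1 and 21.6 RPKM in later libraries, against 74.1, 116 and 96.6 RPKM in first-day libraries (log2 difference −2.03, SE 0.34, adjusted p = 0.0328), with the later values close together. It was the 1 of 23 immediate early genes that passed, yet 10 of 23 were lower and 0 higher without overlap, against 9.25% and 10.2% of all genes tested, with a median of −0.90. Among them Fosl1, an AP-1 subunit, had 55.8, 2.16 and 14.7 RPKM in later libraries, against 153, 169.9 and 115 RPKM in first-day libraries (log2 difference −3.36, SE 0.85, adjusted p = 0.109). Egr1, a zinc finger factor, had 58, 5.85 and 20.3 RPKM in later libraries, against 85.8, 182 and 146 RPKM in first-day libraries (log2 difference −2.70, SE 0.69, adjusted p = 0.114). Fos itself had 43.4, 20.6 and 29.8 RPKM in later libraries, against 61, 42 and 2.15 RPKM in first-day libraries, which overlapped (log2 difference 0.61, SE 0.97, adjusted p = 0.83), and the 24 h library was the lowest. Trib3, a pseudokinase induced by ATF4 under amino acid and endoplasmic reticulum stress (chr2:152337422-152344032), had 6.66, 8.03 and 3.49 RPKM in later libraries, against 73.4, 48.1 and 41.5 RPKM in first-day libraries (log2 difference −2.99, SE 0.46, adjusted p = 0.0264). It was the 1 of 24 amino acid supply genes that passed, and Atf5 (−2.34, adjusted p = 0.0962), Asns (−1.41, adjusted p = 0.193) and Atf4 (−0.88, adjusted p = 0.3) were lower without overlap and did not pass.

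Spsb1, Fxyd5, Nrbp2, Pgc and Trbc2 were named by size of change, and Upp1 and Klhl21 after their values were seen. Pgc and Trbc2 were under 1 RPKM in all 3 later libraries, so the filter fixed their order in advance. Spsb1, a substrate adaptor of a ubiquitin ligase, had 7.26, 1.18 and 3.85 RPKM in later libraries, against 31.8, 31.9 and 73.3 RPKM in first-day libraries (log2 difference −3.28, SE 0.61, adjusted p = 0.0421). It stood higher on the first day than in fresh cells, at 11.3 and 10.1 RPKM. Fxyd5, dysadherin, a regulator of the sodium pump, had 6.08, 2.59 and 2.78 RPKM in later libraries, against 25.3, 41 and 27.7 RPKM in first-day libraries (log2 difference −2.79, SE 0.50, adjusted p = 0.0373). Fresh cells held 2.02 and 2.2 RPKM, so the first day was its high point. Nrbp2, a pseudokinase, had 0.0183, 0.811 and 1.49 RPKM in later libraries, against 17, 16.7 and 16.2 RPKM in first-day libraries (log2 difference −3.41, SE 0.57, adjusted p = 0.032), with first-day values nearly equal to each other. Pgc, gastric progastricsin, had 0, 0 and 0.998 RPKM in later libraries, against 6.57, 169 and 78.8 RPKM in first-day libraries (log2 difference −5.22, SE 1.03, adjusted p = 0.0483). Its fresh libraries differed from each other, at 10.7 and 918 RPKM. Trbc2, a constant segment of the T cell receptor, was listed at 0 in 2 later libraries and had 20.1, 10.4 and 23.2 RPKM in the first-day libraries (log2 difference −4.08, SE 0.56, adjusted p = 0.0173), with Cd3e at 0 throughout. Upp1, uridine phosphorylase, had 8.45, 7.59 and 6.78 RPKM in later libraries, against 43.7, 62.9 and 28.1 RPKM in first-day libraries (log2 difference −2.35, SE 0.44, adjusted p = 0.0432). Klhl21, an adaptor of a cullin ligase used in cytokinesis, had 38.9, 17.7 and 31.1 RPKM in later libraries, against 139.8, 123 and 109 RPKM in first-day libraries (log2 difference −2.11, SE 0.38, adjusted p = 0.0373). Klhl21 was lower where the mitotic genes named above were higher.

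**Figure D3:**
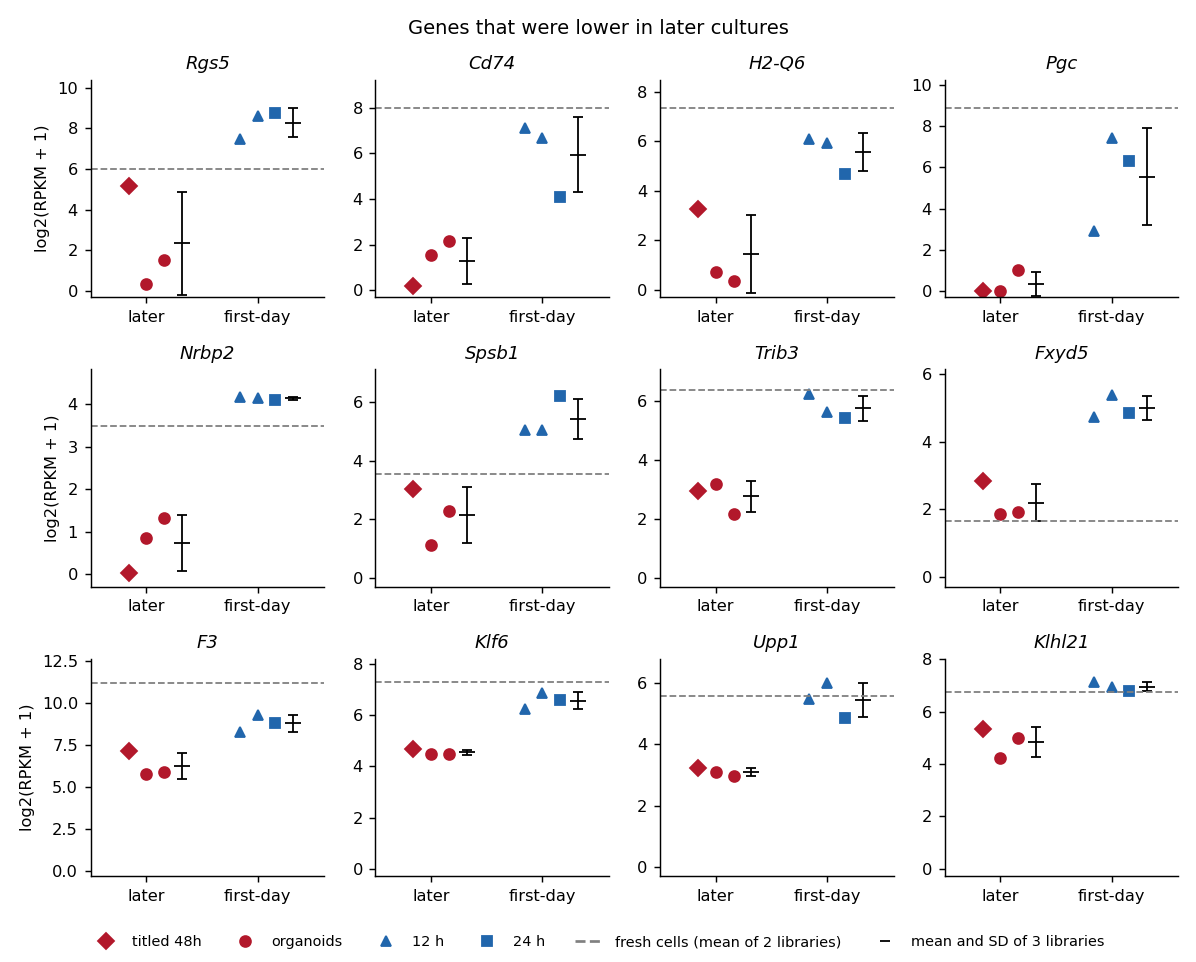
Log2(RPKM + 1) (vertical axis) in the 3 later and 3 first-day libraries for 12 lower genes, with the mean and SD of each group in black and the mean of the fresh libraries as a dashed line. F3 and Cd74 were highest in fresh cells, whereas Rgs5, Spsb1 and Fxyd5 were highest on the first day.

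Promoters of lower genes are shown for the letters TGANTCA, the AP-1 site, searched on both strands. They stood in the promoters of 3 of 11 lower genes (27.3%), namely F3, Klhl21 and Upp1, against 1 of 44 higher genes outside the cell cycle lists (2.27%), 0 of 33 higher cell cycle list genes and 5.95% of all genes tested. With 11 genes these shares are coarse, and they say nothing of binding. The 1 higher gene with the letters was Mmp7. Capitals mark TGANTCA. The F3 promoter (chr3:121723287-121723586, plus strand) held 2 matches a few bases apart, and those of Klhl21 (chr4:152008641-152008940, plus strand) and Mmp7 (chr9:7691840-7692139, plus strand) held 1 each.
F3: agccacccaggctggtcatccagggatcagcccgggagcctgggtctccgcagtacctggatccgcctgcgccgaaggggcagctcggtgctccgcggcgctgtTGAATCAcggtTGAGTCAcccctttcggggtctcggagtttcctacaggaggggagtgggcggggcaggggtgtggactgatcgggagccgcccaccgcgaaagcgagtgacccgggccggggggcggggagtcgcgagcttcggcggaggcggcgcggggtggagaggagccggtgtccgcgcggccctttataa
Klhl21: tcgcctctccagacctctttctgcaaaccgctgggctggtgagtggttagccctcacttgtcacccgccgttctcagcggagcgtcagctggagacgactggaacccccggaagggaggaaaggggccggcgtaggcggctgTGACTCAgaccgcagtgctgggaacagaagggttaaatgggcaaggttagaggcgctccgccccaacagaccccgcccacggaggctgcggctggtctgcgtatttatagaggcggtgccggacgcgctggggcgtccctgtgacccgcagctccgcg
Mmp7: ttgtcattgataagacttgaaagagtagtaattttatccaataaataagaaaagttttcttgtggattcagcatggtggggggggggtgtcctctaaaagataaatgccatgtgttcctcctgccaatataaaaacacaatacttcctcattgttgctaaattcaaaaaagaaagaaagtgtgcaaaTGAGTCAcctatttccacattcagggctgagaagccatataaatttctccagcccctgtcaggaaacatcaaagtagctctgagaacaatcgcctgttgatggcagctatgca

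Members of the lists outside the cell cycle passed in both directions. In 37 such lists, 695 genes were tested, and 6 were higher and 6 lower, against 0.958% and 0.175% of all genes tested. By limma, 25 of the 37 lists had no passing member. Of 24 genes of the unfolded protein response and secretion, 0 passed, 6 lay under an unadjusted p of 0.05 and 10 were higher without overlap, against 10.2% of all genes tested, with a median of 0.46. Calr, a calcium-binding chaperone, had 158, 76.7 and 119.8 RPKM in later libraries, against 44.3, 43.3 and 58.2 RPKM in first-day libraries (log2 difference 1.22, SE 0.37, adjusted p = 0.176). Herpud1, a degradation factor of the endoplasmic reticulum, had 81, 102 and 91.7 RPKM in later libraries, against 42.7, 46.7 and 35.1 RPKM in first-day libraries (log2 difference 1.13, SE 0.32, adjusted p = 0.152). Neither passed, and in both all later values lay above all first-day values. Of 46 oxidative phosphorylation subunits encoded in the nucleus 13 were higher without overlap, against 10.2% of all genes tested, with a median of 0.48, while 0 passed and 4 lay under an unadjusted p of 0.05. In some, organoids 1 stood far above the other later libraries, as in Atp5c1 (170, 738 and 185 RPKM) and Cox6b1 (694, 1963 and 700 RPKM). In others, such as Ndufv1 and Sdhb, organoids 1 was the lowest later library. The summed share of genes on the mitochondrial genome, given above, was lower in later cultures.

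Of 21 glycolysis genes 8 were higher without overlap, 1 of them by the expression filter alone, against 10.2% of all genes tested. By limma 0 of the 21 passed, and 4 lay at an unadjusted p under 0.05. The list's median of 1.22 dropped to 0.38 without organoids 1. Pkm, pyruvate kinase, had 375, 1513 and 398 RPKM in later libraries, against 143, 95.9 and 177 RPKM in first-day libraries (log2 difference 2.17, SE 0.54, adjusted p = 0.102). Tpi1, triose phosphate isomerase, had 201, 961 and 149 RPKM in later libraries, against 119, 126 and 120.3 RPKM in first-day libraries (log2 difference 1.33, SE 0.61, adjusted p = 0.42). In both, organoids 1 stood well above the other 2 later libraries. Of 40 MYC and ribosome biogenesis genes 0 passed and 6 lay under an unadjusted p of 0.05, against 1333 of all 10857 genes tested. The list's median was −0.51, or −0.06 without organoids 1. Myc had 46.6, 18.2 and 68.3 RPKM in later libraries, against 79.6, 152 and 183 RPKM in first-day libraries, lower without overlap (log2 difference −1.72, SE 0.52, adjusted p = 0.176), and fresh cells held 182 and 315 RPKM. Of 20 NRF2 targets 5 were lower and 1 higher without overlap, and of 22 ERK targets and ErbB ligands 5 were lower and 0 higher, against 9.25% lower and 10.2% higher of all genes tested. Neither list had a passing member by limma (5 and 4 at an unadjusted p under 0.05).

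Ductal identity genes lay on both sides. Of 26 ductal identity genes 0 passed by limma and 12 lay under an unadjusted p of 0.05, against 1333 of all 10857 genes tested. Without overlap 5 were higher and 6 lower, against 10.2% and 9.25% of all genes tested. The median was 0.16, or −0.03 after quantile normalization. The lower side included the transcription factors of the duct lineage Sox9 and Onecut2. Sox9 had 107, 119.8 and 139.7 RPKM in later libraries, against 188, 302 and 219 RPKM in first-day libraries (log2 difference −0.93, SE 0.32, adjusted p = 0.248). Onecut2 had 14.7, 12.7 and 20.4 RPKM in later libraries, against 61.1, 62.1 and 48.2 RPKM in first-day libraries (log2 difference −1.80, SE 0.37, adjusted p = 0.0554). The higher side included the keratin Krt7, which had 285, 809.8 and 409 RPKM in later libraries, against 145, 83.3 and 122 RPKM in first-day libraries (log2 difference 1.99, SE 0.43, adjusted p = 0.0649). Epcam, the sort marker, had 513, 900.2 and 954 RPKM in later libraries, against 862, 1175 and 877 RPKM in first-day libraries and overlapped (log2 difference −0.34, SE 0.37, adjusted p = 0.747). Krt19 (1.70, adjusted p = 0.349) and Spp1 (−0.25, adjusted p = 0.873), both duct markers, overlapped as well. By limma, 0 of 26 Polycomb and chromatin modifiers and 0 of 12 DNA methylation genes passed (1 each at an unadjusted p under 0.05). Ezh2, the Polycomb methyltransferase (0.58, adjusted p = 0.681), and Dnmt1, the maintenance DNA methyltransferase (0.67, adjusted p = 0.664), did not pass. Tet1, a methylcytosine dioxygenase, fell under the expression filter, with 0, 0.29 and 0.182 RPKM in later libraries, against 0.00325, 0.00313 and 2.43 RPKM in first-day libraries.

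**Figure D4:**
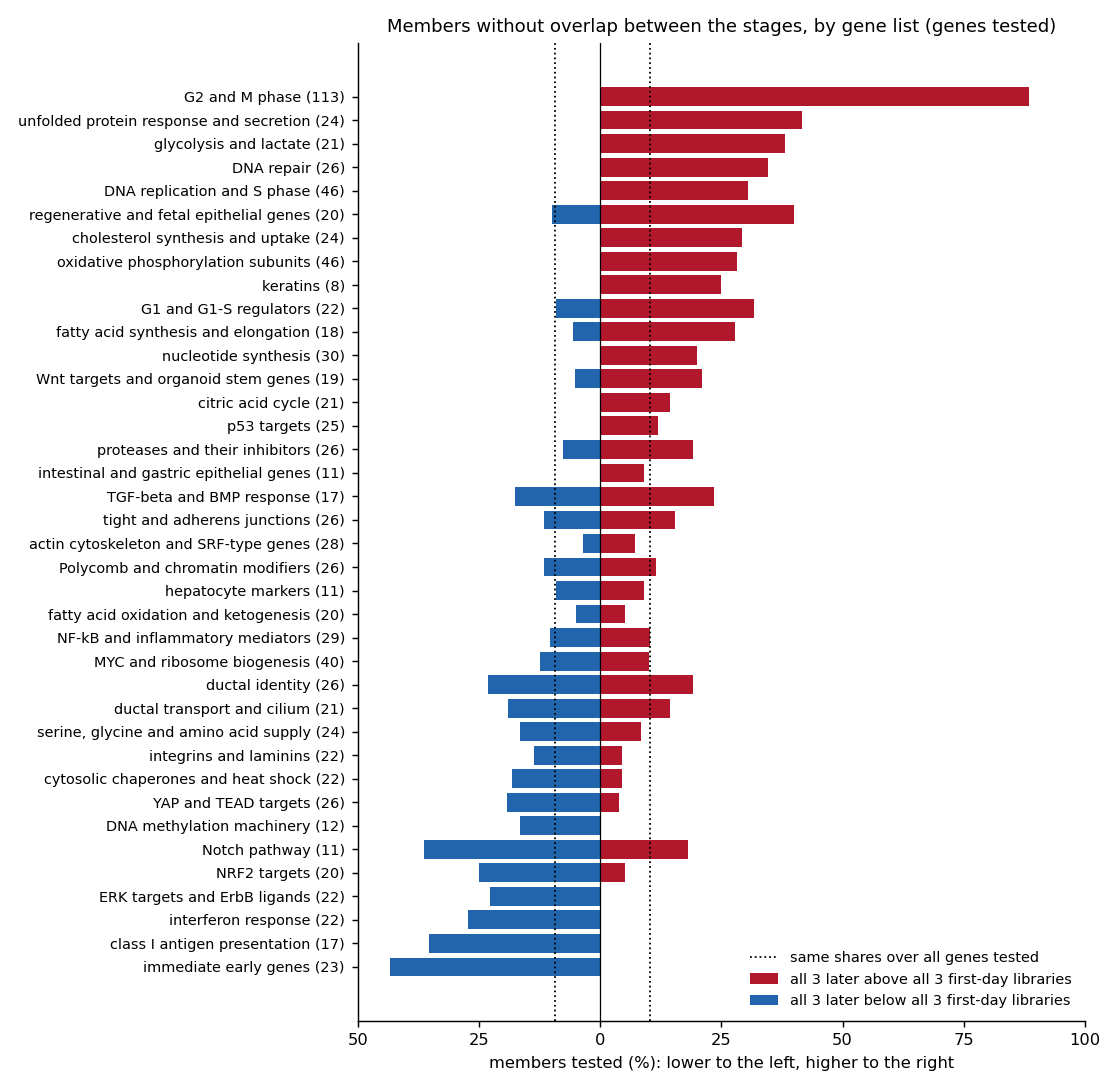
Share of tested members (horizontal axis, %) whose 3 later values all lie above (right) or below (left) the 3 first-day values, for gene lists with at least 8 genes tested (rows, number tested in parentheses), with the shares over all genes tested as dotted lines at 10.2% and 9.25%. G2 and M phase reaches 88.5% higher, with 49 of its 113 genes higher by the expression filter alone. Immediate early and class I genes reach 43.5% and 35.3% lower, with 1 of the 17 class I genes lower by that filter alone.

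The library titled 48h was the highest later library in most of the higher cell cycle genes and in a minority of the other higher genes. Among the 44 cell cycle list genes the library titled 48h was the highest of the 3 later libraries in 34 and organoids 1 the lowest in 39. Among the 12 assigned cell cycle genes the library titled 48h was highest in 10. Among the 48 other higher genes the library titled 48h was highest in 12 and an organoid library in 36, while organoids 1 was the lowest in 17. As 2 of the 3 later libraries were organoids, their number alone would place most peaks there. The share over all genes tested is not given. Cdk1, the mitotic kinase, had 131, 48.2 and 73.1 RPKM in later libraries, against 4.12, 2.47 and 11 RPKM in first-day libraries (log2 difference 3.71, SE 0.57, adjusted p = 0.0264), with its peak in the library titled 48h, whereas Ly6a, Igfbp4 and Gabrp peaked in the organoids. The difference between these shares was not tested, as the library titled 48h has no replicate.

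**Figure D5:**
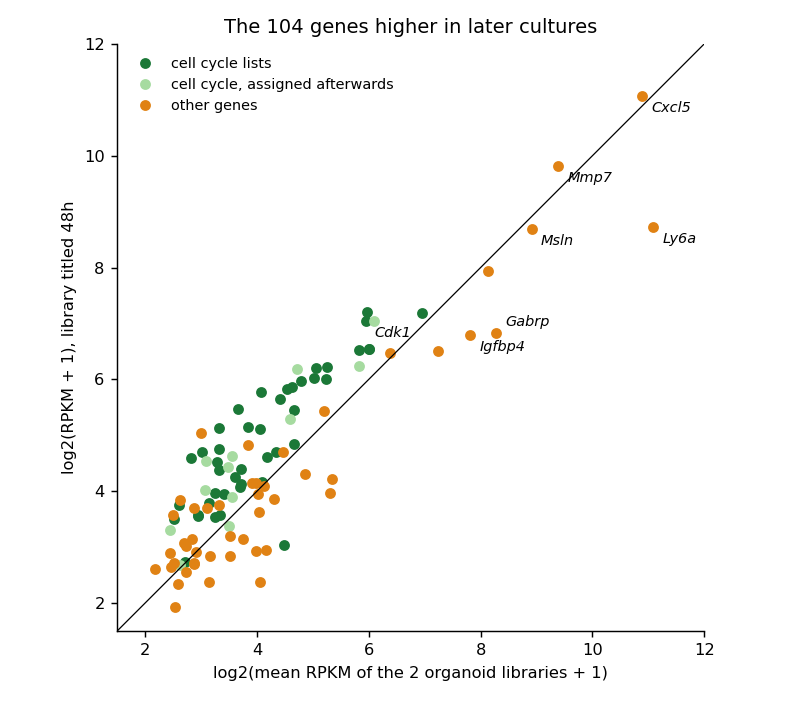
Log2(RPKM + 1) in the library titled 48h (vertical axis) against the log2 mean RPKM of both organoid libraries (horizontal axis) for the 104 higher genes, with the line of equality. Most cell cycle genes lie above the line and most other genes, with Ly6a farthest, on or below it.

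Among the changed genes, those outside the cell cycle reached 1 RPKM in fresh cells more often than the cell cycle genes. Both fresh libraries held at least 1 RPKM of 6 of the 44 higher cell cycle list genes, 1 of the 12 assigned ones, 29 of the 48 other higher genes and 17 of the 19 lower genes. The share of all genes tested at that level in fresh cells is not given, so these counts cannot be set against it. Of the 48 other higher genes, 15 were listed at 0 in all 3 first-day libraries, as were 6 of the 44 cell cycle list genes. Among them Angptl8, a secreted regulator of lipoprotein lipase, had 2.80, 5.02 and 4.58 RPKM in the later libraries and was listed at 0 in all first-day libraries (log2 difference 2.33, SE 0.46, adjusted p = 0.0474). Its gene overlaps Dock6, and of genes named above Cdc20 overlaps Elovl1, Cdc45 overlaps Ufd1 and Tk1 overlaps Afmid, so that reads could be split between them where counting ignores strand. Cd74, Fxyd5 and Mcpt8 overlap microRNA genes, and Plk1, Top2a, Mmp7, Cln6, Galns, Bcam, Klhl21 and Spsb1 overlap predicted or noncoding genes. Fresh cells held 11.4 and 13.8 RPKM, so that Angptl8 was at 0 on the first day alone. The number of genes above 0 was also lower on the first day, as given above, and its part in these zeros was not tested.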

How the data were processed

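The authors deposited RPKM values per Ensembl gene for 8 libraries made by Smart-seq2 and Nextera XT tagmentation, per the labels. The build was GRCm38 and edgeR was used, per the submitters' processing notes, and the sources used here do not name the aligner, counter, strand setting or annotation. GENCODE M21 named 47310 of 47729 identifiers.

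From these values, genes at 1 RPKM or more in at least 3 of the 6 libraries were tested on log2(RPKM + 1) with limma 3.58.1 in R 4.3.3. The model had 1 coefficient per stage, moderated variances with a mean trend, 4 residual and 5.58 prior degrees of freedom and Benjamini-Hochberg adjustment, and was tested on simulated data. Between 87.3% and 90.2% of low values were whole reads within 0.01, which gave depth. At these depths 3 reads, the most a count of 0 allows, are 0.0527 to 0.108 RPKM in a gene of 2 kb, for counting error only. The members, the 42 lists and the comparison were chosen with earlier results of these data known, and lists carry no test. Named genes are, among those that passed, the 10 largest increases and 10 largest decreases outside the cell cycle lists with a mean of at least 5 RPKM and no overlap, leaving out predicted, ribosomal, mitochondrial, small RNA and pseudogenes, up to 4 passing members per list and a fixed set. Some genes that these rules name are not reported here. Alternatives varied the pseudocount, filter, scaling, weights, model, the place of the library titled 48h and each library.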

Additional observations from a re-analysis of the deposited data

How the results depend on the processing

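The number of changed genes depended on the settings and on single libraries. Against 123 changed genes, 79 of them outside the cell cycle lists, a pseudocount of 5 RPKM gave 68 and 44. Without a filter beyond a value above 0, limma gave 0 and 0, with 1864 genes at an unadjusted p under 0.05. A filter of 1 RPKM in 2 libraries gave 84 and 51, and a mean of at least 5 RPKM gave 47 and 30. Library weights gave 465 and 354, a model with the fresh libraries 285 and 207, and 1 coefficient per title group 630 and 521. With the library titled 48h placed on the first day, 1 gene passed, which lay outside the cell cycle lists and was not among the 123. Leaving out 1 library at a time gave 0 to 124 changed genes, and 0 to 79 outside the lists. The 124 without the 24 h library held 90 of the 123, and the 21 without the library titled 48h held 14. A pseudocount of 0.1 RPKM (106), centring on library medians (156) and quantile normalization (140) stayed within 1.5 times the count. The genes were not all the same, as 85, 118 and 106 of these were among the 123. Centring moved the median of all genes to 0.16 from 0.02. With 4 numbered libraries, organoids against 12 h, the replicate block gave 335 and 276 changed genes, and the same libraries without the block 75 and 56. Deviations of same-numbered libraries correlated at 0.02, so the numbers were not taken as pairs. For the named genes that passed, 61 results without 1 library held the call and 155 lost it. Under other alternatives 338 held it and 129 lost it. No direction changed, which the lack of overlap between the groups fixed in advance for fits without 1 library. Among named genes that did not pass, Axin2 turned to 1.12 with library weights, 0.40 with the library titled 48h on the first day and 1.13 in the 4 numbered libraries with or without the block, and ranged from −0.91 to 0.77 without 1 library. Fos turned to −0.10 with weights and −1.002 in the 4 libraries, and ranged from −0.74 to 1.41. With the library titled 48h on the first day Pcna turned to −0.044 and Epcam to 0.17. Spp1 was 0 after quantile normalization, and without 1 library ranged from −0.57 to 0.049. The cause of these dependences was not tested. Depth limits genes near 0, where a listed 0 does not show absence.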

Other observations

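Several changed genes are neighbours on the chromosome, a pattern noticed after the values were seen and given without a test. Among the 123 changed genes, 8 pairs have gene bodies within 50 kb of each other, and in all 8 pairs both genes were higher. As 104 of the 123 were higher, their number alone would make most pairs so. The share of such pairs over all genes tested is not given, and Top2a, Igfbp4 and Tns4 pair with each other, so the pairs are not separate. Igfbp4 lies between Top2a and Tns4 on chromosome 11, 17054 bases from the first and 11285 bases from the second. Tns4, a focal adhesion protein of epithelium, had 18.8, 28.2 and 27.7 RPKM in the later libraries, against 1.82, 3.28 and 0.312 RPKM in the first-day libraries (log2 difference 3.35, SE 0.60, adjusted p = 0.0373 by limma). Cmc2, a mitochondrial assembly factor, lies 274 bases from the centromere gene Cenpn on chromosome 8, on the opposite strand, and had 27.4, 15.1 and 11.4 RPKM in the later libraries, against 1.68, 0 and 1.22 RPKM in the first-day libraries (log2 difference 3.29, SE 0.63, adjusted p = 0.0464). The other pairs were Cenph with Ccnb1, Pbk with Esco2, Cxcl5 with Pf4, and Oip5 with Nusap1, whose gene bodies overlap. Reads of overlapping genes on opposite strands cannot be told apart without strand, and the strand setting of the counting is unknown here.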
